A study of Mus musculus with 8 samples.

Results

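The carbonic anhydrases described here are 8 genes, Car1, Car2, Car3, Car5a, Car8, Car12, Car13 and Car14, out of the 16 mouse carbonic anhydrase genes found in a table of 35275 gene identifiers. They were taken as a named list, and Car3 was selected on its FPKM level, which was far lower in knockout-labelled than in wild-type livers. The genotype values of Car3 are therefore a description and carry no p, and no count of members is read as support. Of the 8, 7 had a mean level high enough to be tested and Car12 did not.

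RNA from 8 mouse livers was sequenced. In 4 livers, 2 female and 2 male, the label was Triple LKO, read here as a liver-specific knockout of the 3 genes of the tristetraprolin family, Zfp36, Zfp36l1 and Zfp36l2. The other 4 livers, 2 female and 2 male, were labelled WT. Age, the alleles the WT animals carry, the transgene that made the deletion and any tumour origin of the tissue are missing from the sources used here. That each sample was a separate animal is not stated, and each p-value thus reflects the spread among these 8 samples only.

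Carbonic anhydrases interconvert carbon dioxide and water with bicarbonate and a proton. In hepatocytes they sit in the cytosol, in mitochondria and on the cell surface, where they serve pH control, bicarbonate exchange and the enzymes that use bicarbonate as a substrate, such as those that start the urea cycle, fatty acid synthesis and glucose synthesis. Proteins of the tristetraprolin family bind AU-rich elements in the 3′ untranslated regions of mRNAs and promote their decay.

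The sequence that such proteins bind best was searched for in each member's 3′ untranslated region, as the letters TATTTAT on the transcript strand, with overlaps counted, in the longest coding transcript of the GENCODE M21 annotation. It was present in 1 of 8 members (12.5%), Car12, against 29.3% of 12267 tested genes with an annotated region of at least 20 bases. The median length of the region was 771 bases in members and 1087 bases in those genes, so the windows differ. The shorter pentamer ATTTA, which also counts every copy inside the longer word, occurred in 62.5% of members and in 68.4% of the tested genes, 8 times in Car8 and 2 times in Car3. The Car12 site is shown because Car12 was the member listed at 0 in every WT liver. It lies on GRCm38 (mm10) at chr9:66766757-66766785, plus strand, 2411 bases after the stop codon in a region of 2488 bases, with TATTTAT in capitals.
Car12: cagcatttccaTATTTATtgtaccaatga

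Promoter windows from RefSeq on GRCm38.p6, 250 bases before to 50 bases after the annotated start, were held for 3 of the 8 members, Car5a, Car12 and Car14. ACGTG, the core of the hypoxia response element, was searched for on both strands and was found in 19.6% of 32851 promoter windows. TTCNNNGAA, the core recognised by STAT5, which reads alike on both strands, was found in 8.3% of them. Car14 held 1 match to ACGTG, on the opposite strand at position -7 from the start, and none of the 3 windows held TTCNNNGAA. The Car14 window is shown because Car14 was the member whose genotype difference ran in opposite directions in the sexes. It covers chr3:95904636-95904935 on the minus strand, with the match in capitals.
Car14: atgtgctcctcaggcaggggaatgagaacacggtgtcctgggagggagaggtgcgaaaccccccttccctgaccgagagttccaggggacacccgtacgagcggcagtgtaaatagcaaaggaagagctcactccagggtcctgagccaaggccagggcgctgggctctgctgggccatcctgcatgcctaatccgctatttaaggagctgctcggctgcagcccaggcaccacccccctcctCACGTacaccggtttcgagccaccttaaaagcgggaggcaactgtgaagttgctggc
A match is a description of letters, and says nothing of whether a factor binds there.

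Levels are FPKM, fragments per kilobase of transcript scaled to a library's fragments, so that genes of different lengths can be set side by side. Libraries held 15.1 to 18.8 M fragments. Mitochondrial genes took 2.80% and 3.44% of fragments in the LKO-labelled females, against 6.52% to 10.4% in the other 6 libraries, whereas Gm42418, whose locus shares sequence with ribosomal RNA, had just 0.042% of fragments in LKO-labelled female 1 and 0.06% in WT male 4, against 3.19% to 4.34% elsewhere. Zfp36 had 11.6 and 17.4 FPKM in LKO-labelled females and 4.51 and 3.66 FPKM in LKO-labelled males, against 29.5 to 61.4 FPKM in WT livers. Zfp36l1 had 4.67 and 8.63 FPKM in LKO-labelled females and 0.499 and 0.695 FPKM in LKO-labelled males, against 10.6 to 21.9 FPKM in WT livers. Zfp36l2 went against the label in females, with 18.1 and 33.0 FPKM in LKO-labelled females against 11.8 and 14.9 FPKM in WT females, while LKO-labelled males had 4.34 and 3.86 FPKM against 14.4 and 17.2 FPKM in WT males. Genotype differences are differences in log2(FPKM + 1), LKO-labelled minus WT, from limma-trend with sex as a term over the 13573 genes with a mean of at least 0.5 FPKM, with Benjamini-Hochberg adjustment over all of them and a threshold of 0.05. On that scale, differences of low genes come out smaller than their ratios.

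Past that threshold were 30.4% of all tested genes, 24.7% higher and 5.74% lower, and the median difference of all tested genes was 0.39. Higher genes were 81.1% of those past the threshold with FPKM as deposited, 48.9% with median-of-ratios scaling and 43.2% with quantile normalization, and the median of all genes moved to 0.05 and -0.02. A gene whose mean reaches 0.5 FPKM in 1 genotype alone entered the test through the group where it is high, so its difference had to run that way and no p is given for it. Among genes named here, this holds for Car13, Slc4a9, Hk2, Cldn7 and Epcam, which entered through LKO-labelled livers. It also holds for Car5b, Slc1a2 and Notum, which entered through WT livers. Of the 5 members left once Car3 and Car13 are set aside, 3 passed the threshold, Car1, Car5a and Car8, all lower, and Car2 and Car14 did not pass.

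**Figure D1:**
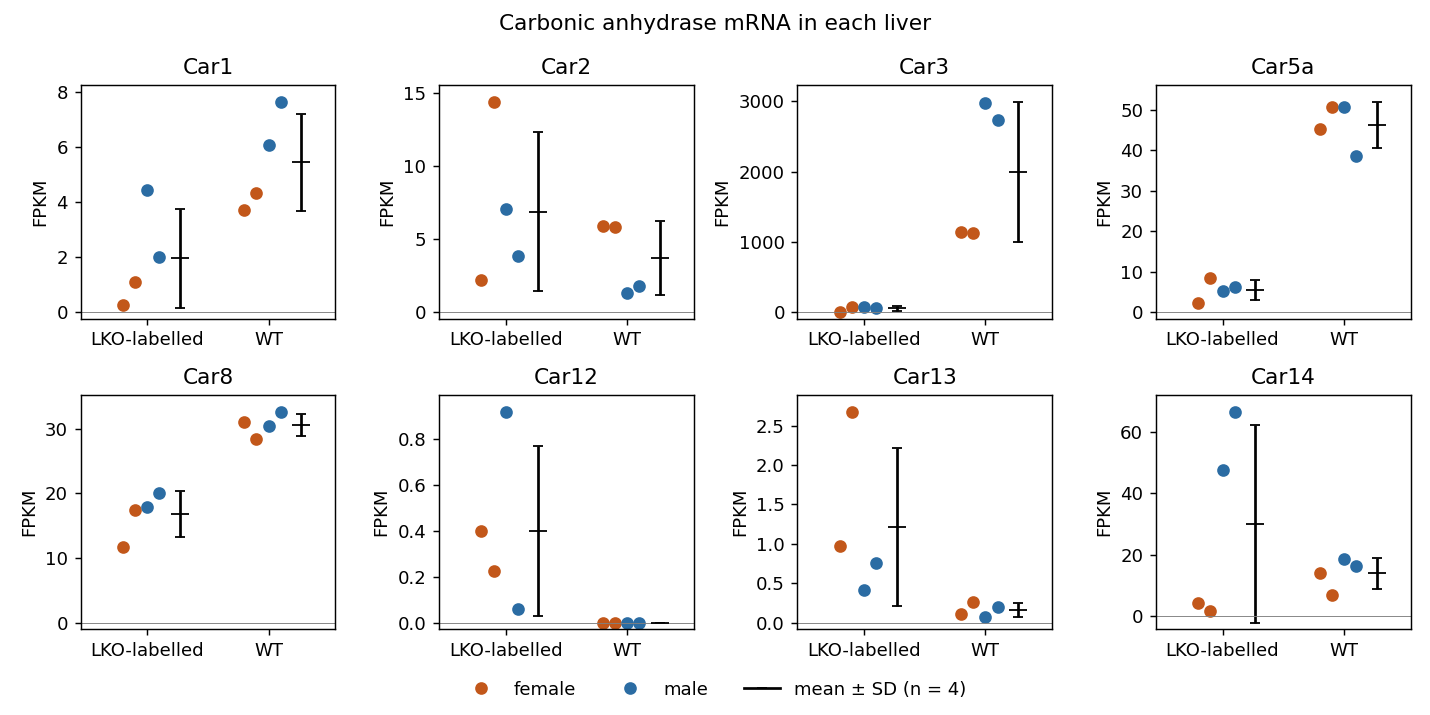
FPKM of each of the 8 members in each liver, LKO-labelled to the left of WT, on a linear axis per gene; points are livers coloured by sex, and the black mark and bar are the mean ± SD of 4 livers. For Car3, Car5a, Car8, Car12 and Car13 the groups did not overlap, while for Car1, Car2 and Car14 they did, with Car14 at 47.8 and 66.7 FPKM in LKO-labelled males and 4.21 and 1.71 FPKM in LKO-labelled females. Car3 was selected on this contrast, and Car13 entered the test through LKO-labelled livers alone. Car12 was not tested and rests on 4 fragments in LKO-labelled male 4. The share of all genes without overlap is not given here, so the absence of overlap is a description.

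Car3 (ENSMUSG00000027559, chr3:14863512-14872523, plus strand) encodes a cytosolic isozyme of low catalytic activity that is abundant in muscle, fat and liver, and in rodent liver follows the sex-specific pattern of growth hormone. It stood at 6.43 and 72.2 FPKM in LKO-labelled females and 70.2 and 66.6 FPKM in LKO-labelled males, against 1145.3 and 1123.7 FPKM in WT females and 2976.2 and 2730.0 FPKM in WT males. Every LKO-labelled liver lay far below every WT liver, and LKO-labelled female 1 lay far below the other 3 of its group. The mean was 53.9 ± 31.7 FPKM in LKO-labelled livers and 1993.8 ± 997.3 FPKM in WT livers (SD, n = 4 each), so that the LKO-labelled mean was 2.70% of the WT mean, 3.46% in females and 2.40% in males. On the log2 scale the difference was -5.48 ± 0.59 (SE), -5.61 ± 0.88 in females and -5.36 ± 0.88 in males. In bulk tissue, fewer cells of a type and less RNA per cell cannot be told apart, here and in what follows.

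Among all genes of a library, Car3 ranked 7223 by FPKM in LKO-labelled female 1, while its ranks were 790 to 880 in the other LKO-labelled livers, against 21 to 52 in WT livers. As few as 151 fragments lie behind the lowest of these values, against 28669 to 80995 in WT livers. Beside it, Slc25a16, a mitochondrial carrier, had the pattern most like that of Car3 across the 8 libraries among 11307 genes, with a Pearson r of 0.991, followed by Nat8f1 and Fdx1 at 0.989 each. These correlations are a description over libraries that share 2 genotype groups, and carry no p.

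Car1, Car2 and Car13, the other cytosolic members, are neighbours of Car3. In the order Car13, Car1, Car3 and Car2, the 4 genes span 259 kb of chromosome 3, from 14641727 to 14900770, with Car1 alone on the minus strand. The differences were 0.83 for Car13 and -5.48 for Car3, given without a test, -1.28 for Car1, and 0.66 for Car2, not past the threshold. Car13 entered through LKO-labelled livers alone and Car3 was selected on its fall. Whether the neighbours share a direction was thus not tested.

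Car1 (chr3:14766216-14808368) encodes an isozyme best known from red blood cells. It had 0.269 and 1.1 FPKM in LKO-labelled females and 4.46 and 2.02 FPKM in LKO-labelled males, against 3.73 and 4.34 FPKM in WT females and 6.08 and 7.65 FPKM in WT males. The genotypes overlapped over both sexes and did not within either sex. The mean was 1.96 ± 1.81 FPKM in LKO-labelled livers and 5.45 ± 1.77 FPKM in WT livers (SD, n = 4 each). The difference was -1.28 ± 0.28 (SE, limma adjusted p = 0.0125). It missed the threshold without sex as a term (adjusted p = 0.0577) and without the 2 libraries low in Gm42418 (-1.03, adjusted p = 0.0598). The value in LKO-labelled female 1 rests on 5 fragments.

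Red cell markers went both ways. Of 13 markers found in the table, 7 were tested, 1 was lower and none was higher by limma, with 1 of the 7 at an unadjusted p under 0.05 and 0 of the 7 past the threshold in either direction by voom. Over all tested genes 5.74% were lower and 24.7% higher by limma. Their summed FPKM was 157.1, 1717.0, 460.6 and 104.0 in LKO-labelled livers, in the order female 1, female 2, male 3 and male 4, against 128.5 to 260.9 in WT livers. Hbb-bs, a haemoglobin chain, had 63.6 to 973.4 FPKM in LKO-labelled livers and 69.2 to 112.5 FPKM in WT livers (1.12 ± 0.75 SE, limma adjusted p = 0.268). Alas2, the red cell enzyme that starts haem synthesis, averaged 9.96 ± 9.06 FPKM in LKO-labelled livers and 31.2 ± 29.6 FPKM in WT livers (-1.21 ± 0.83 SE, adjusted p = 0.278). Klf1, an erythroid transcription factor and the marker that was lower, averaged 1.09 ± 1.02 FPKM in LKO-labelled livers and 3.73 ± 1.90 FPKM in WT livers (difference -1.24 ± 0.38 SE, limma adjusted p = 0.0397). The part of red cell RNA in the levels of Car1 was not tested. The genes most like Car1 across the 8 libraries were Apoc4 (r = 0.990), an apolipoprotein, Sirt3 (r = 0.988), a mitochondrial deacetylase, and Urod (r = 0.973), an enzyme of haem synthesis.

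Car2 (chr3:14886273-14900770) encodes the highly active cytosolic isozyme of red cells, kidney, osteoclasts and bile duct epithelium. Its levels were 2.19 and 14.4 FPKM in LKO-labelled females and 7.08 and 3.82 FPKM in LKO-labelled males, against 5.92 and 5.85 FPKM in WT females and 1.33 and 1.78 FPKM in WT males. Both LKO-labelled males lay above both WT males, while the LKO-labelled females lay on either side of the WT females. The mean was 6.88 ± 5.43 FPKM in LKO-labelled livers and 3.72 ± 2.51 FPKM in WT livers (SD, n = 4 each). The difference, 0.66 ± 0.49 (SE), did not pass (limma adjusted p = 0.315). It passed without LKO-labelled female 1 (1.24, adjusted p = 0.00865) and without the 2 libraries low in Gm42418, of which that liver is one (1.29, adjusted p = 0.0269). Hmgb1, a chromatin protein, had the most similar pattern (r = 0.957), followed by Atp6v0d2 (r = 0.944), a subunit of the proton-pumping ATPase of osteoclasts and macrophages, and Akap7 (r = 0.942).

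Bile duct markers differed between these livers. Their summed FPKM over 12 genes was 340.4 and 3197.7 in LKO-labelled females and 16.3 and 15.2 in LKO-labelled males, against 25.7 to 32.1 in WT livers, and most of it was Spp1, with 290.6 and 3145.0 FPKM in LKO-labelled females. Krt19 and Krt7, keratins that define bile duct cells, stayed at or below 0.227 FPKM in LKO-labelled livers and 0.714 FPKM in WT livers. Cldn7, a claudin, had 14.1 and 11.7 FPKM and Krt23, a keratin, 27.0 and 11.8 FPKM in LKO-labelled females 1 and 2, against at most 0.541 and 5.15 FPKM in WT livers, while Sox9 had 2.37 and 7.44 FPKM and Epcam 0.157 and 5.23 FPKM in them, so that the markers did not order these livers alike. Of the 12 markers, 6 were tested and 0 passed in the genotype contrast by limma. At an unadjusted p under 0.05 were 2, and 2 were higher by voom, a test with which 29.1% of all genes were higher and 6.01% lower. Cldn7 and Epcam are among the 6 and entered through LKO-labelled livers alone, so their differences had to run that way. The interaction passed for 2 of the 6, against 7.21% of all tested genes. These were Spp1 (6.82, limma adjusted p = 0.0288) and Cldn7 (3.52, given without a p). Krt23 and Sox9 differed by 2.42 and 1.67 in females and by 0.53 and 0.06 in males, with interactions not past the threshold. The part of bile duct cells in the level of Car2 was not tested.

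Car13 (chr3:14641727-14663002) encodes a widely expressed cytosolic isozyme. It had 0.977 and 2.67 FPKM in LKO-labelled females and 0.417 and 0.756 FPKM in LKO-labelled males, against 0.105 and 0.256 FPKM in WT females and 0.0723 and 0.202 FPKM in WT males. No LKO-labelled liver overlapped a WT liver, but 3 to 10 fragments lie behind the WT values and 18 to 103 behind the others. The mean was 1.21 ± 1.0 FPKM in LKO-labelled livers and 0.159 ± 0.085 FPKM in WT livers (SD, n = 4 each). The difference was 0.83 ± 0.27 (SE), and between 0.46 and 2.73 over 14 alternative settings, and is a description.

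Car5a (ENSMUSG00000025317, chr8:121916126-121944904, minus strand) encodes the mitochondrial isozyme of hepatocytes, which supplies bicarbonate to carbamoyl phosphate synthetase and pyruvate carboxylase. Levels were 2.31 and 8.35 FPKM in LKO-labelled females and 5.16 and 6.15 FPKM in LKO-labelled males, against 45.3 and 50.7 FPKM in WT females and 50.7 and 38.7 FPKM in WT males. The highest LKO-labelled liver was well below the lowest WT liver, and the sexes were alike within each genotype. Car5a averaged 5.49 ± 2.51 FPKM in LKO-labelled livers and 46.3 ± 5.70 FPKM in WT livers (SD, n = 4 each), 11.9% of the WT mean. It fell by 2.95 on the log2 scale (SE 0.31, limma adjusted p = 0.000963), with differences of -3.14 in females and -2.77 in males. The call held in all 16 alternative settings tried for it, with differences between -3.34 and -2.62. The genes most like it were Gjb1, the main gap junction protein of hepatocytes, Adtrp and Slc25a21, a mitochondrial carrier, each at r = 0.991.

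Car5b, the more widely expressed mitochondrial isozyme and not one of the 8 members, stood lower than Car5a in every liver, so that Car5a was 4.95, 8.60, 47.6 and 41.9 times Car5b in LKO-labelled livers, in the order above, against 29.4 to 44.2 times in WT livers. These ratios are rough, since Car5b rested on 25, 56, 7 and 9 fragments in LKO-labelled livers and 49 to 88 in WT livers. Car5b averaged 0.424 ± 0.399 FPKM in LKO-labelled livers and 1.26 ± 0.266 FPKM in WT livers (SD, n = 4 each), a difference of -0.70 ± 0.22 (SE) given without a test. The genotypes overlapped.

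Car8 (ENSMUSG00000041261, chr4:8143362-8239041, minus strand) encodes a protein that lost catalytic activity and is known for binding the inositol trisphosphate receptor in cerebellar Purkinje cells. Its levels were 11.7 and 17.5 FPKM in LKO-labelled females and 17.9 and 20 FPKM in LKO-labelled males, against 31.1 and 28.4 FPKM in WT females and 30.4 and 32.6 FPKM in WT males. The groups did not overlap, and WT livers were close together. Car8 averaged 16.8 ± 3.53 FPKM in LKO-labelled livers and 30.6 ± 1.73 FPKM in WT livers (SD, n = 4 each), and fell by 0.85 on the log2 scale (SE 0.18, limma adjusted p = 0.0117). Without the 2 libraries low in Gm42418 the difference was -0.69 (adjusted p = 0.0517). Nat8f1 and Ugt2a3, a glucuronosyltransferase, were among the genes with the most similar patterns (r = 0.990 each), and Nat8f1 was also among the genes most like Car3.

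Car14 (ENSMUSG00000038526, chr3:95897768-95904691, minus strand) encodes a membrane-spanning isozyme with its active site outside the cell, known from the plasma membrane of mouse hepatocytes. It stood at 4.21 and 1.71 FPKM in LKO-labelled females and 47.8 and 66.7 FPKM in LKO-labelled males, against 14.0 and 6.99 FPKM in WT females and 18.5 and 16.2 FPKM in WT males. LKO-labelled females were below all WT livers and LKO-labelled males above all of them. The mean was 2.96 FPKM in LKO-labelled females against 10.5 FPKM in WT females, and 57.2 FPKM in LKO-labelled males against 17.3 FPKM in WT males (n = 2 each). Over both sexes the mean was 30.1 ± 32.3 FPKM in LKO-labelled livers and 13.9 ± 4.96 FPKM in WT livers (SD, n = 4 each), with a difference of 0.05 ± 0.62 (SE, limma adjusted p = 0.953). Its sign turned in 8 of 16 alternative settings, among them median-of-ratios scaling (-0.32) and quantile normalization (-0.39).

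The genotype difference of Car14 was -1.54 ± 0.40 in females and 1.65 ± 0.40 in males (SE, log2 scale). The interaction, the difference in females minus that in males, was -3.20 ± 0.57 (SE, limma adjusted p = 0.0248), with 7.21% of all tested genes past the threshold. Car14 was the 1 member past it among the 7 tested. Its sign held in all 15 alternative settings, between -3.67 and -2.73, and the call was lost in 8 of them, 6 of which leave out a library, with adjusted p between 0.00632 and 0.111 over all 15. Mitochondrial genes took 2.80% and 3.44% of fragments in LKO-labelled females and 7.08% and 10.4% in LKO-labelled males, against 6.52% to 7.75% in WT livers, and each of the 3 targeted genes had an interaction past the threshold, 2.19 for Zfp36, 2.53 for Zfp36l1 and 2.56 for Zfp36l2 (limma adjusted p = 0.0267, 0.0330 and 0.0212). Their part in the result was not tested. Across the 8 libraries the genes most like Car14 were Atp5f1 (r = 0.992), a subunit of mitochondrial ATP synthase, Nfs1 (r = 0.982), the mitochondrial cysteine desulfurase, and Mtx2 (r = 0.980), a protein of the mitochondrial outer membrane. Car14 overlaps Aph1a on the opposite strand, and the strand setting of the counting is not given in the sources used here. Reads from the stretch that these genes share thus cannot be told apart, and how many reads that covers is not given here. Aph1a averaged 16.3 FPKM in LKO-labelled livers and 20.4 FPKM in WT livers.

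**Figure D2:**
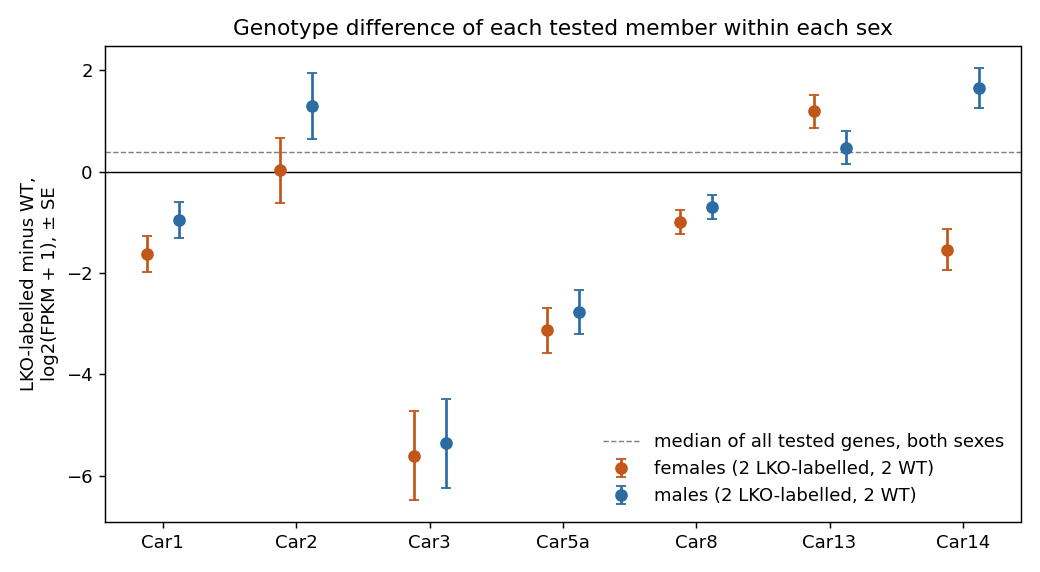
Difference in log2(FPKM + 1), LKO-labelled minus WT, for each of the 7 tested members in females and in males, with bars of ± SE from a model with 1 mean per genotype and sex; the dashed line is the median of all tested genes. Car14 is the member whose points lie on opposite sides of 0, at -1.54 in females and 1.65 in males, while Car1, Car3, Car5a and Car8 lie below 0 in both sexes.

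For the other 6 tested members the interaction lay between -1.27 for Car2 and 0.72 for Car13, the last given without a p. It did not pass for Car1, Car2, Car3, Car5a and Car8, with limma adjusted p of 0.423 to 0.922. That does not show that the sexes responded alike. That of Car3 was -0.25 ± 1.24 (SE, limma adjusted p = 0.922) and rested on LKO-labelled females 1 and 2, which differed from each other. Without LKO-labelled female 1 it was 1.40 (adjusted p = 0.0238), without that liver and WT male 4 it was 1.47 (adjusted p = 0.0651), and without LKO-labelled female 2 it was -1.90 (adjusted p = 0.00742). The interaction of Car2 passed without LKO-labelled female 2 (-2.41, adjusted p = 0.0130). That of Car13 was 1.17 without LKO-labelled female 1, given without a p.

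Car12 (ENSMUSG00000032373, chr9:66713686-66766845, plus strand) encodes a membrane-bound isozyme with an extracellular active site, known from tumours, where low oxygen and, in breast, oestrogen raise it. It had 0.397 and 0.225 FPKM in LKO-labelled females and 0.917 and 0.0604 FPKM in LKO-labelled males, and was listed at 0 in all 4 WT livers. Behind these values lie 23, 14, 64 and 4 fragments. At these depths a listed 0 allows up to 3 fragments per library, a limit that covers counting error only, so LKO-labelled male 4 lies close to it. The mean of 0.400 ± 0.371 FPKM (SD, n = 4) in LKO-labelled livers kept it out of the test, and no fold is given.

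Of the 8 carbonic anhydrase genes outside the list, Car5b and Car7 were tested. Car7, a cytosolic isozyme of brain, averaged 0.650 ± 0.264 FPKM in LKO-labelled livers and 0.711 ± 0.239 FPKM in WT livers (difference -0.06 ± 0.22 SE, limma adjusted p = 0.855). Car9, the cell-surface isozyme best known as a hypoxia target, stayed below the filter, at 0.317, 1.44, 0.474 and 0.222 FPKM in LKO-labelled livers against 0.0595, 0.0582, 0.192 and 0.131 FPKM in WT livers, without overlap and with 8 to 49 fragments against 2 to 7. Car4, Car6, Car10, Car11 and Car15 stayed below 0.8 FPKM in every liver.

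The make-up of the family can be read from FPKM summed over all 16 genes. The sum was 31.0 and 122.2 FPKM in LKO-labelled females and 155.6 and 166.9 FPKM in LKO-labelled males, against 1248.6 and 1222.7 FPKM in WT females and 3085.8 and 2829.6 FPKM in WT males. Car3 made up 20.7%, 59.1%, 45.2% and 39.9% of it in LKO-labelled livers, against 91.7%, 91.9%, 96.4% and 96.5% in WT livers. The order of levels was Car3, Car5a, Car8 and Car14 in each WT liver. Car8 stood at the top in LKO-labelled female 1 and Car3 in female 2 and male 3, while in male 4 Car14 and Car3 were level at 66.7 and 66.6 FPKM. Without Car3 the sum was 24.6, 50, 85.3 and 100.3 FPKM in LKO-labelled livers and 103.2, 99.0, 109.6 and 99.6 FPKM in WT livers, so that LKO-labelled male 4 lay inside the range of WT livers and the other 3 below it. Car14 gave 30.7% and 40.0% of the family sum in LKO-labelled males, as well as 13.6% and 1.40% in the females of that genotype, against 0.572% to 1.12% in WT livers.

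**Figure D3:**
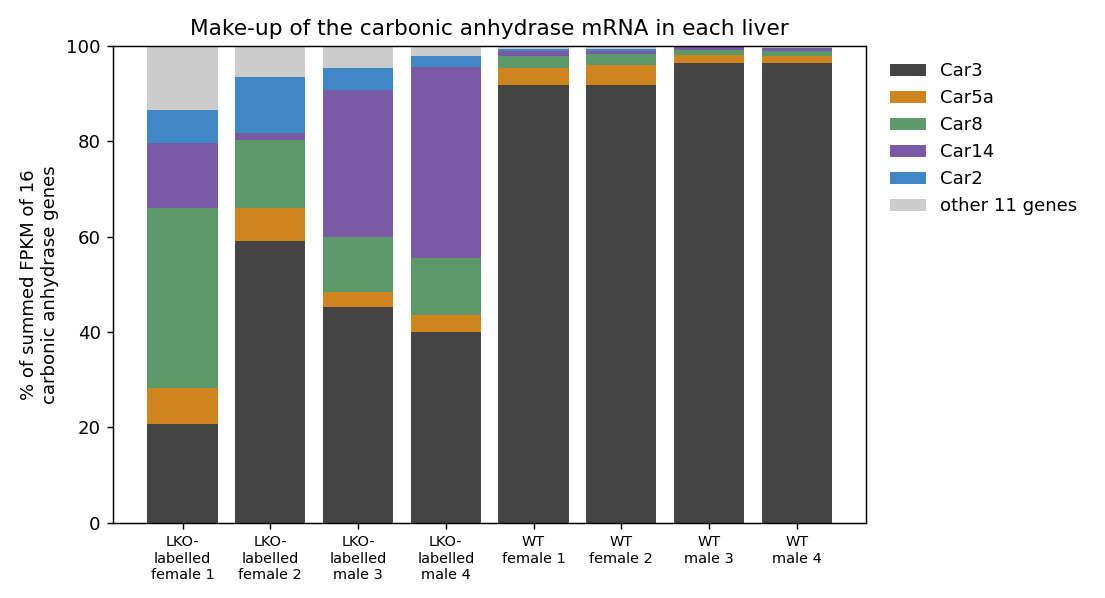
Share of the summed FPKM of 16 carbonic anhydrase genes held by Car3, Car5a, Car8, Car14, Car2 and the other 11 genes, in percent, 1 stacked bar per liver with LKO-labelled livers to the left of WT. Car3 fills 91.7% to 96.5% of the WT bars and 20.7% to 59.1% of the LKO-labelled bars, and Car14 is the next largest share in LKO-labelled male 3.

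The sexes of WT livers were compared without use of the genotype contrast. In the model of all 8 libraries 0 of 7 tested members passed by limma, and 0 had an unadjusted p under 0.05, against 0.427% of all tested genes past the threshold; voom on recovered fragments also passed 0. Car3 was 2.51 times as high in WT males as in WT females, a difference of 1.33 ± 0.88 (SE, limma adjusted p = 1.0) in that model, whose spread includes the LKO-labelled females. Fitted on the 4 WT livers alone, an alternative added after the data were seen, the difference was 1.33 ± 0.13 (SE, limma adjusted p = 0.0106), higher in 2 of 2 males. In the model of all genotypes the adjusted p was 0.0392 without LKO-labelled female 1, 0.0352 without LKO-labelled female 2, 0.225 without LKO-labelled female 1 and WT male 4, and 1.0 with any other single library left out. Car2 in WT males stood at 0.264 times the level in WT females, with -1.44 ± 0.65 (SE, limma adjusted p = 0.987) in the model of 8 libraries and -1.44 ± 0.19 (adjusted p = 0.0252) in WT livers alone. In that fit 1.14% of all genes passed. Among LKO-labelled livers, Car14 was 19.4 times and Car1 4.74 times as high in males as in females.

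Genes that carry bicarbonate, protons or lactate across membranes work beside carbonic anhydrases. Of 28 such genes that were found, 16 were tested, and 6 were higher, 2 of them genes that entered through LKO-labelled livers alone, and 1 lower. Over all tested genes 24.7% were higher and 5.74% lower. The median difference was 0.44 against 0.39 for all genes. Slc4a9, an anion exchanger, had 1.70, 25.8, 42.6 and 62.7 FPKM in LKO-labelled livers against 0.162 to 0.421 FPKM in WT livers, with no overlap and a difference of 4.08 ± 0.76 (SE). Slc26a6, a chloride and bicarbonate exchanger, averaged 4.97 ± 2.08 FPKM in LKO-labelled livers and 0.787 ± 0.168 FPKM in WT livers (1.66 ± 0.30 SE, limma adjusted p = 0.00670). Slc16a1, which carries lactate with a proton, averaged 21.6 ± 3.84 FPKM in LKO-labelled livers and 9.25 ± 2.50 FPKM in WT livers (1.15 ± 0.22 SE, adjusted p = 0.00830). The lower gene, Slc26a1, a sulphate and bicarbonate exchanger, averaged 16.5 ± 4.48 FPKM in LKO-labelled livers and 44.6 ± 6.99 FPKM in WT livers (-1.40 ± 0.23 SE, adjusted p = 0.00467).

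Of 9 tested genes listed as bicarbonate users, 1 was higher and 2 were lower, with a median of -0.65. Over all tested genes 24.7% were higher and 5.74% lower, with a median of 0.39. Acacb, the acetyl-CoA carboxylase at mitochondria, averaged 3.49 ± 1.76 FPKM in LKO-labelled livers and 18.9 ± 6.49 FPKM in WT livers (SD, n = 4 each; -2.17 ± 0.26 SE, limma adjusted p = 0.00172). Pccb, a subunit of propionyl-CoA carboxylase, averaged 38.5 ± 14.2 FPKM in LKO-labelled livers and 82.3 ± 6.21 FPKM in WT livers (-1.14 ± 0.22 SE, adjusted p = 0.00807). Cad, which starts pyrimidine synthesis, averaged 6.36 ± 2.26 FPKM in LKO-labelled livers and 2.13 ± 1.1 FPKM in WT livers (1.23 ± 0.31 SE, adjusted p = 0.0216). Mccc2, a subunit of methylcrotonoyl-CoA carboxylase, did not pass (-0.98 ± 0.38 SE, adjusted p = 0.0795). Cps1, the urea cycle enzyme that Car5a supplies, named after its values were seen, did not pass either, at 748.7 ± 604.0 FPKM in LKO-labelled livers and 871.5 ± 196.9 FPKM in WT livers (-0.65 ± 0.52 SE, adjusted p = 0.351). These pooled values hold differences by sex. Cps1 had 234.0 and 243.2 FPKM in LKO-labelled females and 1422.2 and 1095.6 FPKM in LKO-labelled males, against 1162.0 and 820.5 FPKM in WT females and 770.4 and 733.3 FPKM in WT males, an interaction of -2.76 (limma adjusted p = 0.0157). That of Mccc2 was -1.92 (adjusted p = 0.0290). In that contrast 4 of the 9 genes passed, Cps1, Mccc2, Mccc1 and Pcca, each with a negative interaction, against 7.21% of all tested genes. Ogdh, also on that list, releases carbon dioxide and does not use bicarbonate.

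**Figure D4:**
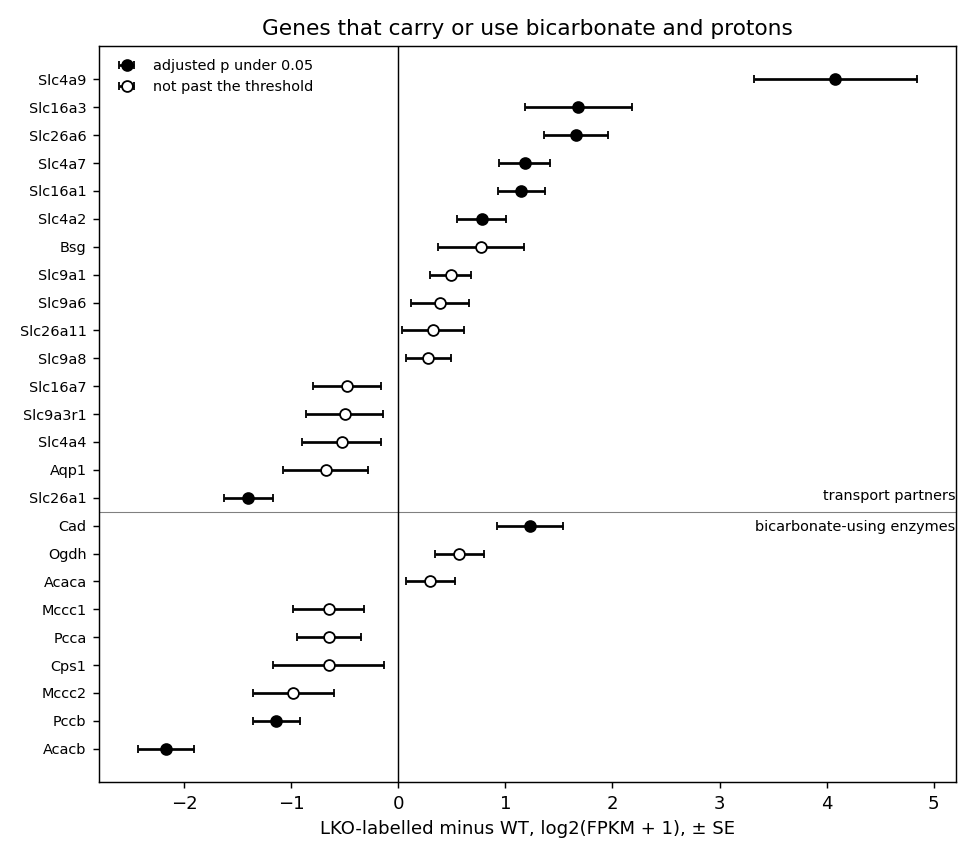
Difference in log2(FPKM + 1), LKO-labelled minus WT, with ± SE from limma, for the 16 tested transport genes (above the line) and 9 tested genes listed as bicarbonate users (below it); filled points have an adjusted p under 0.05, which is not read for genes that entered the test through 1 genotype alone. Slc4a9 lies farthest to the right at 4.08 and Acacb farthest to the left at -2.17.

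Car9 and Car12 are known hypoxia targets. Of 17 tested genes of a hypoxia list, 10 were higher and 0 lower by limma, with a median of 1.1. Of all tested genes, 24.7% were higher, with a median of 0.39. Among the 10, 2 had entered through LKO-labelled livers alone. Of the 17, 13 had an unadjusted p under 0.05, and voom passed 11 higher and 0 lower. Ero1a, an oxidase of the endoplasmic reticulum, averaged 21.9 ± 6.29 FPKM in LKO-labelled livers and 5.64 ± 1.69 FPKM in WT livers (SD, n = 4 each; 1.78 ± 0.22 SE, limma adjusted p = 0.00193). Hk2, a hexokinase low in normal liver, averaged 9.94 ± 8.49 FPKM in LKO-labelled livers and 0.357 ± 0.0539 FPKM in WT livers (2.75 ± 0.41 SE). Kdm3a, a histone demethylase, rose by 1.09 ± 0.16, and Ankrd37 by 1.71 ± 0.39 (SE, adjusted p = 0.00310 and 0.0157). The part of low oxygen in the levels of Car9 and Car12 was not tested.

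Since Car3 in rodent liver follows growth hormone, 13 genes of that pathway were set beside it. By limma 6 were lower and 0 higher, against 5.74% and 24.7% of all tested genes. Of the 13, 7 had an unadjusted p under 0.05, voom passed 7 lower and 0 higher, and the median was -1.68. The interaction passed for 3 of them (7.21% of all tested genes) and the sex difference in WT for 3 (0.427%). Ghr, the receptor, averaged 32.4 ± 24.1 FPKM in LKO-labelled livers and 146.9 ± 19.5 FPKM in WT livers (SD, n = 4 each; -2.41 ± 0.41 SE, limma adjusted p = 0.00539). Igf1, its main secreted target, averaged 17.0 ± 9.52 FPKM in LKO-labelled livers and 128.0 ± 31.4 FPKM in WT livers (-2.94 ± 0.32 SE, adjusted p = 0.00108). Igfals, the IGF carrier subunit, fell by 2.96, and Egfr fell by 2.21 (adjusted p = 0.000323 and 0.00537). The part of growth hormone signalling in the level of Car3 was not tested.

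Of 13 tested genes of hepatocytes around the central vein, 12 were lower, 4 of them having entered through WT livers alone, and 0 higher by limma, 12 had an unadjusted p under 0.05 and 12 were lower by voom, with a median of -3.29. Of all tested genes, 5.74% were lower by limma. Slc1a2, a glutamate transporter, averaged 0.278 ± 0.444 FPKM in LKO-labelled livers and 25.3 ± 5.65 FPKM in WT livers (SD, n = 4 each; -4.39 ± 0.22 SE). The differences were -5.68 for Cyp1a2, a cytochrome P450, -5.6 for Oat, ornithine aminotransferase, and -2.72 for Notum, a Wnt inhibitor (limma adjusted p = 0.000835 for Cyp1a2 and 0.000995 for Oat). The summed FPKM of the list was 95.0 to 836.9 in LKO-labelled livers and 6749.1 to 7277.6 in WT livers, and its part in the levels of Car3 and Car5a was not tested.

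Muscle and fat are also rich in Car3. Of 14 skeletal muscle markers, 6 were listed at 0 in every liver, among them Mb and Myh4, and 0 of 3 tested passed by limma or by voom, with 0 at an unadjusted p under 0.05. Their sum was 26.6, 3.17, 3.40 and 2.23 FPKM in LKO-labelled livers and 1.45 to 2.48 FPKM in WT livers. Of 12 adipocyte markers, Plin1 and Lep were at 0 in every liver and Adipoq at no more than 0.0466 FPKM, while 3 of 5 tested were higher and 0 lower by limma, with 5 at an unadjusted p under 0.05 and 3 higher and 1 lower by voom. Over all tested genes 24.7% were higher and 5.74% lower by limma, and 29.1% and 6.01% by voom. Lpl and Fabp4, which macrophages and endothelium also express, averaged 179.9 ± 65.0 and 242.2 ± 172.8 FPKM in LKO-labelled livers and 4.03 ± 1.23 and 10.6 ± 2.6 FPKM in WT livers (SD, n = 4 each). Plin4, a lipid droplet protein and the third marker that was higher, averaged 5.35 ± 3.16 FPKM in LKO-labelled livers and 2.13 ± 0.997 FPKM in WT livers (0.92 ± 0.21 SE, limma adjusted p = 0.0145). Pck1, which hepatocytes use for glucose synthesis, went the other way, at 450.0 ± 254.9 FPKM in LKO-labelled livers and 1152.5 ± 144.8 FPKM in WT livers (-1.67 ± 0.55 SE, adjusted p = 0.0503). Of 10 pancreas acinar markers 5 were at 0 in every liver, and 0 of 2 tested passed by limma or by voom, with 0 at an unadjusted p under 0.05.

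Hepatocyte markers were abundant in every liver, with Alb at 15077.8 to 21853.4 FPKM in LKO-labelled livers and 30795.2 to 36038.8 FPKM in WT livers. That difference did not pass (-0.95 ± 0.35 SE, limma adjusted p = 0.0715). Ttr, Apoa1, Apob, Cyp3a11 and Ass1 overlapped between the genotypes. Ttr had 1013.3 to 5409.2 FPKM in LKO-labelled livers and 2547.5 to 4473.4 FPKM in WT livers. Apoa1 had 3936.0 and 4300.5 FPKM in LKO-labelled females and 732.8 and 1281.5 FPKM in LKO-labelled males, against 3116.9 to 4835.9 FPKM in WT livers. Apob had 228.7 to 444.7 FPKM in LKO-labelled livers and 289.4 to 386.2 FPKM in WT livers. Of 10 such markers 4 were lower and 0 higher by limma, and the median was -0.96. The 4 were Tat, Fah, Serpina1a and Hnf4a. Tat had 178.4 to 439.4 FPKM in LKO-labelled livers and 574.6 to 1091.3 FPKM in WT livers. Fah had 131.5 to 265.7 FPKM against 343.6 to 444.9 FPKM in WT livers. Serpina1a had 230.1 to 645.2 FPKM against 951.8 to 1089.9 FPKM, and Hnf4a 97.1 to 139.4 FPKM against 170.2 to 251.6 FPKM, in the same order. Of all tested genes, 5.74% were lower. At an unadjusted p under 0.05 were 6 of the 10, and by voom 5 were lower and 0 higher. The interaction passed for 2 of the 10, against 7.21% of all tested genes. These were Apoa1 (2.57, limma adjusted p = 0.0304) and Ass1 (-2.96, adjusted p = 0.0317). The part of these 10 markers in the results for the carbonic anhydrases was not tested.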

How the data were processed

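Liver RNA-seq of 4 LKO-labelled and 4 WT samples, grouped by the labels, was used. The authors deposited 1 table of FPKM values. The submitters' processing notes name mm10 and the tools HTSeq, DESeq2, fastp and STAR 2.6.1, with no roles; strand setting and annotation were not given in the sources used here. FPKM values of a library share its total, so a few abundant genes can shift the rest. Symbols were matched for 34490 of 35275 identifiers through GENCODE M21, whose GRCm38 coordinates are printed. Whole fragments were recovered from the steps of the FPKM values (100% of values whole to within 0.001 fragments), giving depths of 15.1 to 18.8 M; they served voom as an alternative test.

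Genes with a mean of at least 0.5 FPKM (13573) were fitted with limma-trend (limma 3.58.1, R 4.3.3) on log2(FPKM + 1) with genotype and sex; the interaction and the sex difference in WT used 1 mean per genotype and sex. The steps were tested on simulated data. The members and lists were chosen with earlier results of these data known. Named genes are the carbonic anhydrases, up to 4 genes of each list with the smallest genotype p, cell type markers with a mean of at least 10 FPKM, and for each member with a mean of at least 1 FPKM the 3 protein-coding genes with the highest Pearson r, leaving out predicted genes; 1 gene named by this rule for Car8 is not reported here. Markers named at lower levels, such as Plin4 and Cldn7, were chosen after their values were seen. No genotype p is given for a named gene that reached 0.5 FPKM in 1 genotype alone. Alternatives were a pseudocount of 0.1, other filters, scalings and tests, no sex term, and libraries left out. Rhbg, Pc and Ahsp were not analysed here.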

Additional observations from a re-analysis of the deposited data

Results flagged for a closer look

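In 29 groups of 4 livers, 1 per carbonic anhydrase gene and genotype wherever a value was above 0, the highest or lowest liver was compared with the rest by Dixon's ratio, and 5 groups stood out, where chance gives about 1 in 20. For Car3, LKO-labelled female 1 lay far below the other LKO-labelled livers at 6.43 FPKM. The remaining 4 are genes near the floor: Car4 was highest in LKO-labelled female 1 at 0.766 FPKM and in WT female 1 at 0.144 FPKM, Car10 in LKO-labelled male 4 at 0.0168 FPKM, and Car15 in LKO-labelled female 2 at 0.0465 FPKM. In these 4 groups the other 3 livers were listed at 0. Dixon's ratio is then at its highest whatever the remaining value, so these 4 flags were fixed in advance. The rate of 1 in 20 does not apply to them.

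The genotype difference of Car14 in females differed from that in males by -3.20 on the log2 scale (limma adjusted p = 0.0248), lower in 2 of 2 LKO-labelled females and higher in 2 of 2 LKO-labelled males than in every WT liver.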

How the results depend on the processing

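Over 365 recomputed values of single carbonic anhydrases that have an adjusted p, 319 kept their direction and side of the threshold, 11 lost a call, 9 gained one and 26 changed sign, 1 of the 26 with an adjusted p under 0.05, the Car3 interaction without LKO-labelled female 1 (1.40). With 1 library left out, the Car3 interaction ran from -1.90 to 1.40, that of Car5a from -1.11 to 0.38, the genotype difference of Car14 from -0.36 to 0.56 and of Car7 from -0.15 to 0.08, and the WT sex difference from -0.30 to 0.08 for Car5a, -0.15 to 0.04 for Car13, -0.27 to 0.04 for Car5b and -0.01 to 0.33 for Car7. Without the 2 libraries low in Gm42418 the interaction was 1.47 for Car3 and 0.58 for Car5a, the genotype difference -0.23 for Car14 and 0.08 for Car7, and the WT sex difference 0.08 for Car5a, 0.04 for Car5b and -0.01 for Car7. The genotype difference of Car14 was -0.07 with a pseudocount of 0.1, -0.32 with median-of-ratios scaling and -0.39 with quantile normalization, and with the last the WT sex difference was 0.04 for Car13 and 0.05 for Car5b. No paired analysis was possible because the labels give no replicate numbers that the groups share.

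Genes past the threshold for genotype numbered 4132, 2421 with quantile normalization, 2102 without the 2 libraries low in Gm42418 and 1946 to 4068 with 1 library left out. Members past it, Car3 and Car13 set aside, numbered 3, 2 both without sex as a term and without those 2 libraries, and 3 to 4 with 1 library left out. Genes with an interaction numbered 978, 577 with a pseudocount of 0.1, 604 without a filter, 27 by voom and 33 to 2694 with 1 library left out; members numbered 1, 0 without a filter, 0 by voom and 0 to 3 with 1 library left out. Genes differing by sex in WT numbered 58, 32 without a filter, 29 by voom, 138 in the 4 WT livers alone, which was added after the data were seen, and 30 to 101 with 1 library left out; members numbered 0, 2 in the WT livers alone and 0 to 1 with 1 library left out. The cause of these shifts was not tested. With 4 livers per genotype and 4 residual degrees of freedom in the model by sex, low genes such as Car12 and Car13 rest on few fragments.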
